A study of Homo sapiens with 6 samples.

Results

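The genes described here are 10 components of the insulin-like growth factor (IGF) system, namely the receptors IGF1R and INSR, the binding proteins IGFBP2, IGFBP3, IGFBP4, IGFBP5, IGFBP6 and IGFBP7, and the adaptors IRS1 and IRS2. They are the rows with these symbols, 10 of the 46427 genes in a table of RNA-seq read counts, and were chosen with earlier results of these data known. The study knocked down CCN3, a secreted matricellular protein, in Hs578T, a triple-negative breast cancer cell line with mesenchymal features. Cells were transduced with a pSUPER retrovirus that carried control shRNA (shCTRL, 3 libraries) or a single CCN3 shRNA, #2 (shCCN3, 3 libraries), and both lines were selected with puromycin and grown in DMEM with fetal bovine serum. The submitters describe the 3 replicates of each group as biologically independent, and p-values measure the spread between them. Only this CCN3 shRNA was sequenced, so the effect of the knockdown cannot be told apart from other effects of the shRNA or of the selection of the lines.

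IGF1 and IGF2 activate the tyrosine kinase IGF1R, and insulin and IGF2 activate its relative INSR. The active receptors phosphorylate the docking proteins IRS1 and IRS2, which recruit PI3K and so activate AKT and mTOR. IGFBP2 to IGFBP6 hold IGFs in the extracellular fluid with high affinity and are cut by proteases, whereas IGFBP7 binds IGFs weakly, and IGFBP3 is the main carrier of IGFs in blood.

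The members with the largest fitted changes in each direction were IGF1R, on chromosome 15, and IGFBP3, on chromosome 7. The 250 bases before the annotated start of each (RefSeq, GRCh38.p14, written 5′ to 3′ along the strand of the gene) are shown to place both genes in the genome. Capitals mark the GC box GGGCGG or its reverse complement.
IGF1R, plus strand, chr15:98648289-98648538: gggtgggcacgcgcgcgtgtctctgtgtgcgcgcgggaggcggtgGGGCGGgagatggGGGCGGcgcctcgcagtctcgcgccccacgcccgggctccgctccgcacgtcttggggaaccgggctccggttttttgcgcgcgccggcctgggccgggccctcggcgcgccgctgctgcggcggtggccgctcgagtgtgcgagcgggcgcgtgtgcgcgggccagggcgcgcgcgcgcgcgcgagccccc
IGFBP3, minus strand, chr7:45921273-45921522: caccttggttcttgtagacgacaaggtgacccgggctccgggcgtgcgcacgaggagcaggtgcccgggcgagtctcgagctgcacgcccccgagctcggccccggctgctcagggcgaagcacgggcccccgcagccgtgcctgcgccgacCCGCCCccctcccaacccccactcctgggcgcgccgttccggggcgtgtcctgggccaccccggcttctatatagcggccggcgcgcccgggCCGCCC
The IGF1R window had a GC content of 81.2% and the IGFBP3 window one of 76.0%, and each held 2 GC boxes. A GC box was present in 42.6% of all 35116 promoter windows of this length. Neither window held the TATA box TATAAA, the TEAD motif CATTCC, the FOXO motif GTAAACA or the AP-1 motif TGANTCA on either strand. Those motifs were found in 10.7%, 11.9%, 2.98% and 6.57% of all windows. Only these letters were searched, and the IGFBP3 window does hold the similar letters TATATA, which this search did not count. Of the 10 members, 9 had an entry, IGFBP7 being the one without, and all of those 9 except IGFBP5 held at least 1 GC box. This count is by gene, whereas the 42.6% is by window. IGFBP2 had several windows, and not all of them held a GC box. The TATA box was found in the window of IGFBP4, the FOXO motif in that of IGFBP6, and the TEAD motif in those of IGFBP5, IGFBP6 and IRS1. These matches are descriptions of the sequence, not measured binding sites.

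Library totals lay between 56159110 and 68393177 counts. Levels are given as CPM, the counts of a gene scaled to a common library size with TMM factors. A level of 0.0439 to 0.0534 CPM, by library, equals 3 counts before TMM scaling. It was taken as the limit of detection, for counting error only. CCN3 mRNA fell from 101 ± 2.43 to 47.0 ± 0.469 CPM (SD, n = 3 each). This is -1.10 on the log2 scale (adjusted p = 1.34e-06, the quasi-likelihood test of edgeR). All 5 mesenchymal markers passed the filter on low counts. At an adjusted p under 0.05 in the same test, 1 was higher (CDH2, log2 fold change 0.87) and 1 was lower (CD44, -0.25). Of all genes tested, 16.2% were higher and 17.3% were lower. VIM, ZEB1 and FN1 did not pass the test, and VIM stood at 7778 CPM in shCTRL and 7064 CPM in shCCN3 cells. Of the 8 epithelial and luminal markers, EPCAM, CDH1 and ESR1 stayed at or below a group mean of 0.0711 CPM, KRT18 rose from 163 to 232 CPM and KRT8 fell from 20.0 to 13.9 CPM. Of the genes that the triple-negative label concerns, PGR was at 2.86 and 3.80 CPM and ERBB2 at 77.9 and 78.2 CPM. The leukocyte marker CD3E and the endothelial marker CDH5 were at 0 in every library and PTPRC at most at a mean of 0.180 CPM, while CD68, which is not restricted to leukocytes, fell from 102 to 58.5 CPM. The library shCCN3 2 stood apart by transcript length. Its deviation from the group mean was lower by 0.27 (log2) in the longest than in the shortest of 5 equal length classes of 12749 genes with a mean of at least 1 CPM, against differences from -0.14 to 0.18 in the other libraries. Whole chromosomes also differed between the lines, with a median log2 fold change of -0.43 over the 821 tested genes of chromosome 7 and of 0.34 over the 891 of chromosome 6.

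Knockdown cells carried more mRNA of the receptor IGF1R and of the binding protein IGFBP7, and less of the binding protein IGFBP3 and of the adaptor IRS1. Of the 10 members, 7 passed the filter on low counts, 4 of the 7 had an adjusted p under 0.05, and 33.4% of all 17419 genes tested did. The 4 were divided into 2 higher and 2 lower in shCCN3 cells, where 16.2% of all genes tested were higher and 17.3% were lower. A change of at least 2-fold was reached by 2 of them, IGF1R and IGFBP3, and by 8.1% of all genes tested. The values of the groups did not overlap for 5 of the 7 members, against 46.3% of all genes tested. The median log2 fold change was -0.34 over the 7 members and 0.01 over all genes tested. The median over the members is the value of a single gene with few reads, IGFBP5. IGFBP4, IGFBP5 and IGFBP6 did not pass the test, and INSR, IGFBP2 and IRS2 had too few counts to be tested.

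**Figure D1:**
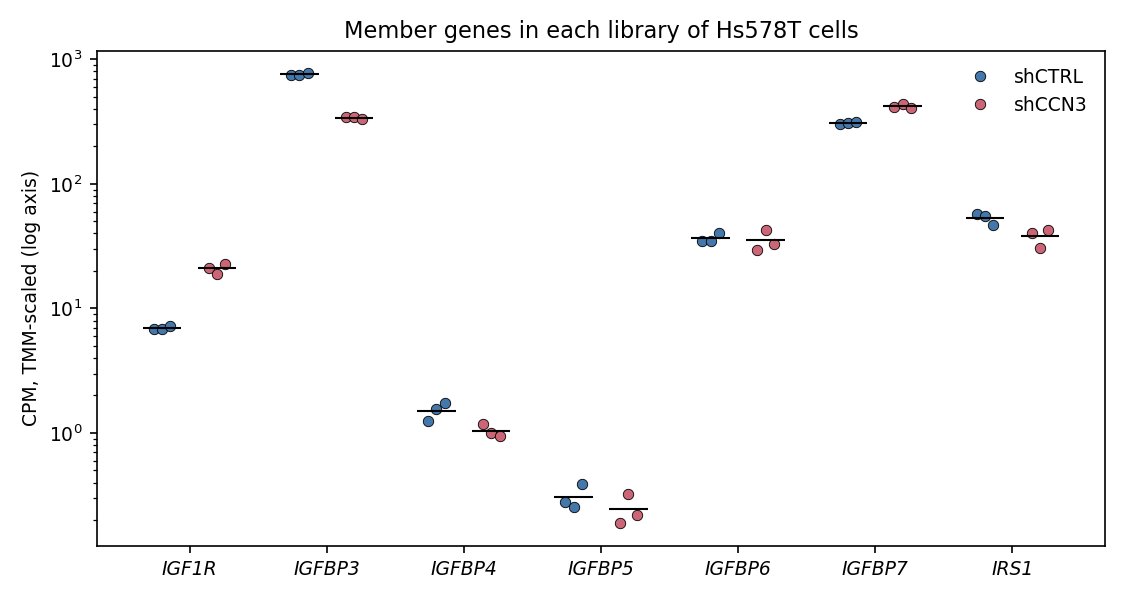
Level of the 7 tested members in each library, in CPM on TMM-scaled library sizes (log axis), with a point for each library and a line at the group mean. IGF1R and IGFBP7 lie higher in all 3 shCCN3 libraries, IGFBP3, IGFBP4 and IRS1 lie lower, and the points of IGFBP5 and IGFBP6 overlap.

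IGF1R, the receptor that carries most IGF signalling, was at 6.88, 6.80 and 7.24 CPM in the shCTRL libraries and at 21.3, 19.0 and 22.9 CPM in the shCCN3 libraries. The groups were far apart, and the lowest knockdown library was shCCN3 2. The mean rose from 6.97 ± 0.236 to 21.1 ± 1.97 CPM (SD, n = 3 each). The log2 fold change was 1.60 (standard error 0.092, 95% interval 1.39 to 1.80, a 3.02-fold rise, adjusted p = 2.98e-06, edgeR), and 97.3% of all genes tested had a lower one. Permuting the group labels in all ways (exact, two-sided) gave p = 0.1, which is the lower limit for 3 libraries against 3, and the same p holds for each member whose groups did not overlap. Without shCCN3 2 the log2 fold change of IGF1R was 1.67.

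The genes around IGF1R did not, in the median, rise with it. The gene spans chr15:98648539-98964530 (GRCh38). The median log2 fold change was 0.02 over the 570 tested genes of chromosome 15 and -0.22 over the 24 tested genes nearest to IGF1R. IGF1R lay 1.57 above the first of these medians and 1.82 above the second. Its nearest tested neighbours, ARRDC4 and SYNM, had log2 fold changes of -0.23 (adjusted p = 0.407) and -0.23 (adjusted p = 0.0892) in the same edgeR test. The antisense RNA IRAIN, which lies within IGF1R, had 0 counts in all 6 libraries.

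INSR, the insulin receptor, had 0, 5 and 6 counts in the shCTRL libraries and 0, 6 and 0 counts in the shCCN3 libraries. It was therefore near the limit of detection in both groups, and neither a fold change nor a ratio of IGF1R to INSR was computed. The nearest tested genes on chromosome 19 were read in depth, with ZNF557 at 10.7 CPM in shCTRL and 10.8 CPM in shCCN3 cells and ARHGEF18 at 188 and 237 CPM. A count of 0 in such a table can also be a failure of the counting. Of the 19398 protein-coding genes in the table, 20.0% were listed at 0 in all 6 libraries.

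IGFBP3, the blood carrier of IGFs, was at 750, 749 and 774 CPM in the shCTRL libraries. The shCCN3 libraries held 342, 341 and 334 CPM, and all 3 were lower than any control library. The mean fell from 758 ± 13.9 to 339 ± 4.34 CPM (SD, n = 3 each). The log2 fold change was -1.16 (standard error 0.052, 95% interval -1.28 to -1.04, a 2.23-fold fall, adjusted p = 6.47e-07, edgeR), and 3.47% of all genes tested had a lower one.

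IGFBP3 lies on chromosome 7 (chr7:45912245-45921272), whose genes were lower as a whole in shCCN3 cells. IGFBP3 was 0.73 (log2) below the chromosome's median of -0.43, and 7.31% of the chromosome's tested genes had a lower log2 fold change. Against the median of its 24 nearest tested genes, which was -0.31, it was 0.85 lower. Its neighbour TNS3 stood at 67.0 CPM in shCTRL and 77.4 CPM in shCCN3 cells (log2 fold change 0.21, adjusted p = 0.139, edgeR). The nearest tested gene on the other side, LOC112267911, stood at 1.71 CPM in shCTRL and 1.40 CPM in shCCN3 cells (log2 fold change -0.29, adjusted p = 0.269, edgeR). The part of the chromosome-wide shift in the fall of IGFBP3 was not tested.

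IGFBP7, the low-affinity binding protein, was at 305, 310 and 317 CPM in the shCTRL libraries. It was at 412, 438 and 406 CPM in the shCCN3 libraries, each above all of the controls, and shCCN3 2 was the highest. The mean rose from 311 ± 5.99 to 418 ± 16.8 CPM (SD, n = 3 each). The fitted log2 fold change was 0.43 (standard error 0.056, 95% interval 0.30 to 0.56, a 1.35-fold rise, adjusted p = 0.000369, edgeR). Without shCCN3 2 it was 0.40 (adjusted p = 0.000102 in the same edgeR test). IGFBP7 spans chr4:57030773-57110385, and the median log2 fold change was 0.05 over the 615 tested genes of chromosome 4. Its end overlaps that of POLR2B by 386 bases, and whether the counting used the strand is not given in the sources used here. POLR2B stood at 109 CPM in shCTRL and 110 CPM in shCCN3 cells, so its level moved by less than that of IGFBP7.

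IGFBP6, which prefers IGF2, was at 35.1, 34.8 and 40.4 CPM in the shCTRL libraries and at 29.7, 42.7 and 33.1 CPM in the shCCN3 libraries. The groups overlapped, since shCCN3 2 was the highest of all 6 libraries and shCCN3 1 the lowest. The log2 fold change was -0.07 (95% interval -0.35 to 0.22, adjusted p = 0.737, edgeR). IGFBP6 has a short transcript, of 1343 exonic bases, and without shCCN3 2, the library that departs by transcript length, its log2 fold change was -0.23 (adjusted p = 0.0501, edgeR).

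IGFBP4 and IGFBP5 had few reads. IGFBP4 was at 1.24, 1.54 and 1.73 CPM in the shCTRL libraries and at 1.18, 1.01 and 0.938 CPM in the shCCN3 libraries, so the groups did not overlap. Its log2 fold change of -0.53 (standard error 0.202, 95% interval -0.98 to -0.07) did not pass the test after adjustment (adjusted p = 0.0740, edgeR). IGFBP5, the binding protein that attaches to extracellular matrix, had 19, 16 and 26 counts in the shCTRL libraries and 13, 18 and 14 counts in the shCCN3 libraries, and these overlapped. Its log2 fold change was -0.34 with a wide 95% interval, from -1.18 to 0.50 (adjusted p = 0.526, edgeR). IGFBP2 had 0 counts in all 6 libraries, although it lies next to IGFBP5 on chromosome 2. A limit of 3 counts allows IGFBP2 at most 0.0439 to 0.0534 CPM by library, before TMM scaling.

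**Figure D2:**
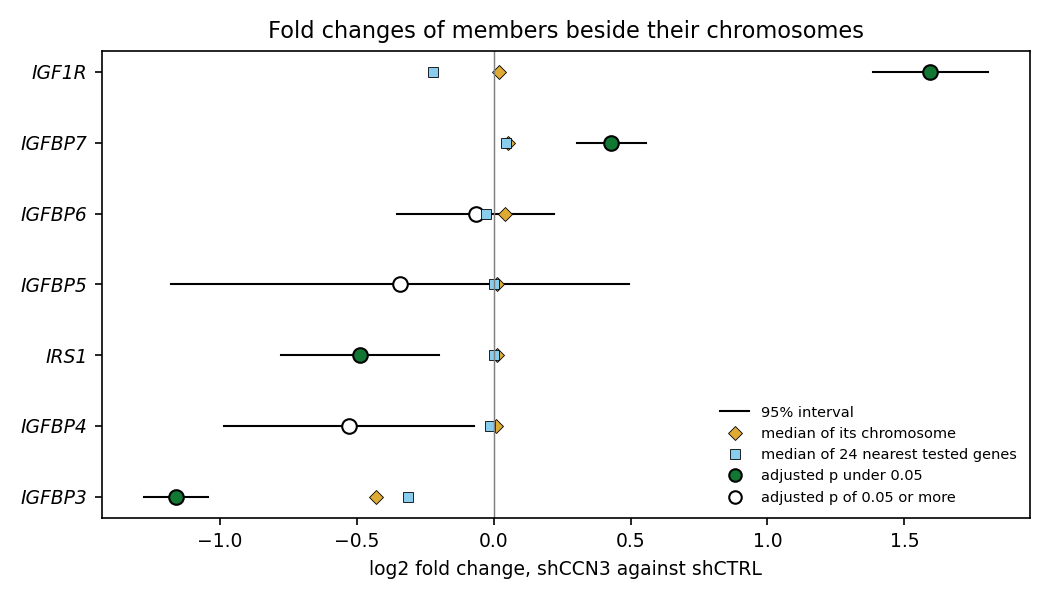
Log2 fold change of each tested member in shCCN3 against shCTRL cells (circles, filled where the adjusted p was under 0.05) with its 95% interval, beside the median of its chromosome (diamonds) and of its 24 nearest tested genes (squares). IGF1R lies 1.57 above the median of chromosome 15, and IGFBP3 lies 0.73 below the median of chromosome 7, which is itself at -0.43.

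IRS1, the adaptor that links the receptors to PI3K, was at 57.5, 54.9 and 47.2 CPM in the shCTRL libraries and at 40.4, 30.3 and 43.0 CPM in the shCCN3 libraries. The groups did not overlap but came close, with shCTRL 3 the lowest control and shCCN3 3 the highest knockdown library. The mean fell from 53.2 ± 5.37 to 37.9 ± 6.70 CPM (SD, n = 3 each). The fitted log2 fold change was -0.49 (standard error 0.128, 95% interval -0.78 to -0.20, adjusted p = 0.0167, edgeR). The call was lost without shCTRL 1 (log2 fold change -0.43, adjusted p = 0.0667) and without shCTRL 2 (-0.46, adjusted p = 0.0665). IRS1 has a long transcript, of 9705 exonic bases, and its lowest value lay in shCCN3 2. Without that library its log2 fold change was -0.35 (adjusted p = 0.00792), and with an offset for exon length, an alternative chosen after seeing the data, it was -0.55 (adjusted p = 0.000295, both edgeR).

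IRS1 lies at chr2:226731312-226799820, and the median log2 fold change was 0.01 over the 1179 tested genes of chromosome 2. IRS2, which has the same role in many tissues, had 0 counts in all 6 libraries. By library, the level of IRS1 per kilobase of exon was set against the level that 3 counts of IRS2 would give. The level of IRS1 was about 1100-fold, 969-fold and 901-fold higher (shCTRL 1 to 3) and about 772-fold, 476-fold and 754-fold higher (shCCN3 1 to 3). Only the level of IRS1 was TMM-scaled here, with factors from 0.983 to 1.02, so these values are approximate. The nearest tested gene to IRS2 on one side, COL4A1, a collagen chain of basement membranes, rose from 69.4 to 139 CPM (log2 fold change 1.01, adjusted p = 0.000254, edgeR). The nearest tested gene on the other side, TNFSF13B, had few reads, at 0.0806 CPM in shCTRL and 0.515 CPM in shCCN3 cells. IRS2 is thus at 0 between a gene that is read in depth and a gene with few reads. Whether the counting could assign reads to IRS2 was not tested.

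Levels of different members were compared after division by the exonic length of the gene. This length is the union of exons of annotated transcripts, and which transcripts these cells express was not examined. In CPM per kilobase, the shCTRL means were ordered IGFBP3 (288 ± 5.30), IGFBP7 (171 ± 3.30), IGFBP6 (27.4 ± 2.33), IRS1 (5.48 ± 0.554), IGFBP4 (0.683 ± 0.113), IGF1R (0.570 ± 0.0193) and IGFBP5 (0.0493 ± 0.0115). IGFBP4 and IGF1R overlapped in shCTRL cells and could not be ranked, whereas the values of the other neighbours in this order did not overlap. In shCCN3 cells the means were IGFBP7 (231 ± 9.25), IGFBP3 (129 ± 1.65), IGFBP6 (26.2 ± 5.03), IRS1 (3.91 ± 0.690), IGF1R (1.72 ± 0.161), IGFBP4 (0.473 ± 0.0554) and IGFBP5 (0.0392 ± 0.0114). No neighbours overlapped in this order, in which IGFBP7 stood above IGFBP3 and IGF1R above IGFBP4. Over all 6 libraries, the level per kilobase of IGFBP3 was above that of 98.4% of the tested genes with a known length and that of IGFBP7 above 98.3%, against 47.8% for IRS1 and 24.5% for IGF1R.

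The makeup of the binding protein mRNAs therefore differed between the lines. IGFBP3 made up 59.4%, 59.0% and 58.9% of the summed CPM per kilobase of the 6 binding proteins in the shCTRL libraries and 34.2%, 32.2% and 33.8% in the shCCN3 libraries. IGFBP7 made up 35.0%, 35.5% and 35.0% in the shCTRL libraries and 59.8%, 59.8% and 59.5% in the shCCN3 libraries. The leading binding protein mRNA thus changed from IGFBP3 to IGFBP7 in all 3 knockdown libraries.

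IGFBP6 accounted for 5.61 ± 0.353% of the sum in shCTRL and 6.76 ± 1.05% in shCCN3 cells (SD, n = 3 each). The ratio of IGFBP3 to IGFBP7 per kilobase was 1.70, 1.66 and 1.68 in shCTRL and 0.572, 0.538 and 0.567 in shCCN3 libraries. The sum itself was 487 ± 10.7 CPM per kilobase in shCTRL and 386 ± 14.9 in shCCN3 cells. Shares and ratios are given as descriptions of the same values, without a test, and in bulk RNA fewer cells that express a gene and less RNA per cell cannot be told apart.

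**Figure D3:**
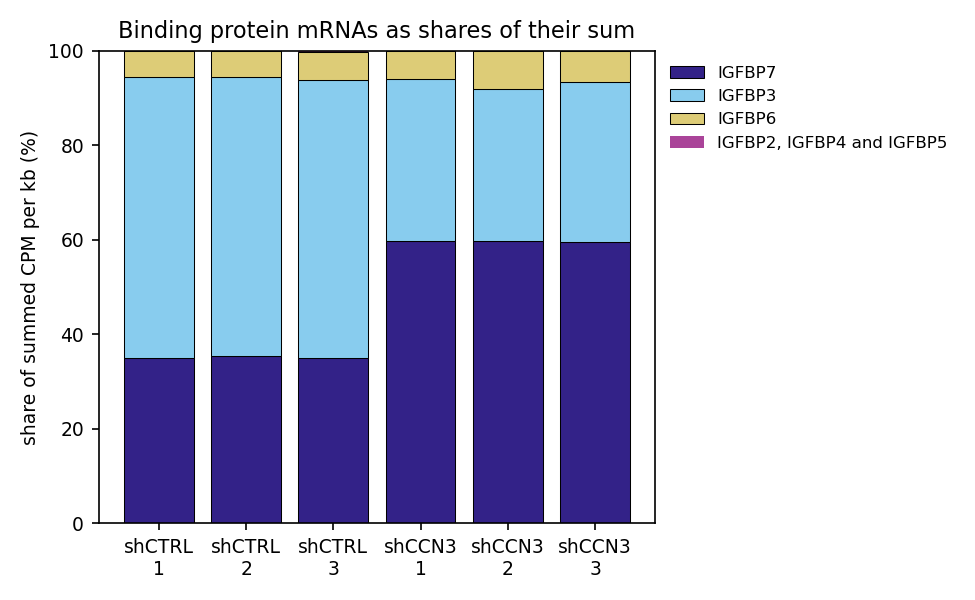
Share of each binding protein mRNA in the summed CPM per kilobase of IGFBP2 to IGFBP7 in each library, in percent. IGFBP3 makes up 58.9% to 59.4% of the sum in shCTRL and 32.2% to 34.2% in shCCN3 libraries, and IGFBP7 takes the larger share in the latter, while IGFBP2, IGFBP4 and IGFBP5 are too small to see.

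The ligands of these receptors had few or no counts, which, as for INSR, does not by itself show that the mRNA was absent. IGF1 and INS had 0 counts in every library, and IGF2 had 0, 0 and 10 counts in shCTRL and 4, 0 and 0 counts in shCCN3 libraries. Of the other receptors, 3 of 4 were tested, 1 was higher and 1 lower, where 16.2% and 17.3% of all genes tested were. LRP1, an endocytic receptor that also binds IGFBP3, fell from 210 to 139 CPM (log2 fold change -0.59, adjusted p = 0.00311, edgeR). Its transcript is long, its lowest value lay in shCCN3 2, and without that library the log2 fold change was -0.46. IGF2R, which takes up IGF2 for degradation, differed by 0.38 on the log2 scale (adjusted p = 0.0487, edgeR), but the groups overlapped and the adjusted p was above the threshold in 8 of 14 alternatives, among them each fit without one of the libraries other than shCCN3 2. IGF2R lies on chromosome 6, whose median was 0.34. TMEM219, described as a receptor for IGFBP3, differed by -0.06 on the log2 scale (adjusted p = 0.723, edgeR), and INSRR had 0 counts in every library.

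Of 8 genes for other proteins with an IGFBP-like domain, 5 were tested, of which 4 fell and 1 rose, where 17.3% and 16.2% of all genes tested did. Their median log2 fold change was -0.88. HTRA1, a secreted serine protease, lay between 237 and 258 CPM in shCTRL and between 65.0 and 74.7 CPM in shCCN3 libraries (log2 fold change -1.83, adjusted p = 2.74e-07, edgeR). IGFBPL1 (-1.50), KAZALD1 (-0.88) and the protease HTRA3 (-0.76) were the other genes with a lower log2 fold change past the threshold, and CRIM1 (0.83), a membrane protein that binds BMPs, was the one with a higher. IGFBP1 was not tested, with 5, 0 and 0 counts in shCTRL and 7, 4 and 15 in shCCN3 libraries. HTRA4 had at most 7 counts in a library, and ESM1 had 0. The CCN proteins carry the same kind of domain, and RefSeq lists IGFBP9 as a synonym of CCN3. Beside the fall of CCN3, CCN2, on chromosome 6, rose by 3.19 and CCN1 by 1.74 on the log2 scale, and CCN4 fell by 0.96 (largest adjusted p of the 3 genes 0.00367, edgeR).

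All 9 proteases of the binding proteins and inhibitors of these proteases were tested, of which 2 rose, 3 fell and 4 did not pass the test, against 16.2% and 17.3% of all genes tested that rose and fell. PAPPA2, a metalloprotease that cuts IGFBP3 and IGFBP5, was at 0.931, 0.876 and 0.700 CPM in shCTRL and 8.11, 5.83 and 7.60 CPM in shCCN3 libraries. Its log2 fold change of 3.10 (adjusted p = 2.90e-06, edgeR) was the largest rise in this list. PAPPA, which cuts IGFBP4, differed by -0.08 on the log2 scale (adjusted p = 0.669, edgeR).

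The inhibitors of these metalloproteases, the stanniocalcins, went in opposite directions. STC1 fell from 89.3 to 38.5 CPM (log2 fold change -1.21, adjusted p = 3.89e-05, edgeR), and STC2 rose from 1462 to 1724 CPM (log2 fold change 0.24, adjusted p = 0.00786, edgeR). The median log2 fold change was 0.11 over chromosome 8, where STC1 lies, and -0.33 over the 24 tested genes nearest to STC1. STC1 lay 0.88 below the latter. The other genes that fell were HTRA1 and ADAMTS1, the latter with a log2 fold change of -0.38 (adjusted p = 0.0119, edgeR) and an adjusted p above the threshold without shCTRL 1 (0.0518) and without shCTRL 2 (0.0565). ADAM9 (-0.19), ADAM12 (-0.18) and ADAM28 (0.14) had log2 fold changes that did not pass the test.

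Among the other adaptors of receptor tyrosine kinases, 20 of 22 were tested, 1 was higher and 5 were lower, so that 6 of 20 were called, near the 33.4% of all genes tested. Those with the largest change were SH2B2 (log2 fold change -0.97, on chromosome 7), SHC3 (-0.93) and SH2B3 (-0.82), the first and the last from a family that binds activated receptors through an SH2 domain. Of 17 tested negative regulators of the pathway, 4 were higher and 2 lower, also near that share, with SOCS1 (-0.95), TRIB3 (0.60) and PHLPP1 (0.58) at the front. The 25 genes of PI3K, AKT and mTOR signalling had 5 higher and 4 lower members, near that share as well, and a median log2 fold change of -0.0048. FOXO1 (0.91), a transcription factor that AKT holds out of the nucleus, had the largest rise in this list, and FOXO6 (-0.64) had the largest fall.

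Of 13 tested FOXO-responsive genes, 6 were higher and 2 lower, with a median of 0.24, where 16.2% of all genes tested were higher and 17.3% lower. GADD45A (0.93), CITED2 (0.93) and SOD2 (0.92) had the largest log2 fold changes. The last 2 of these, like another of the 6 higher genes, lie on chromosome 6, whose median was 0.34. CITED2 lay 0.59 and SOD2 0.58 above that median. The list is one of textbook targets, and its counts do not measure FOXO activity. Of the IGF2 mRNA-binding proteins, IGF2BP3 fell from 50.9 to 19.2 CPM (log2 fold change -1.40, adjusted p = 5.71e-05, edgeR), 0.97 below the median of its chromosome 7. IGF2BP2 differed by 0.25 on the log2 scale (adjusted p = 0.0243, edgeR), which lost the threshold in 6 of 14 alternatives, among them each fit without one of the libraries other than shCCN3 2.

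**Figure D4:**
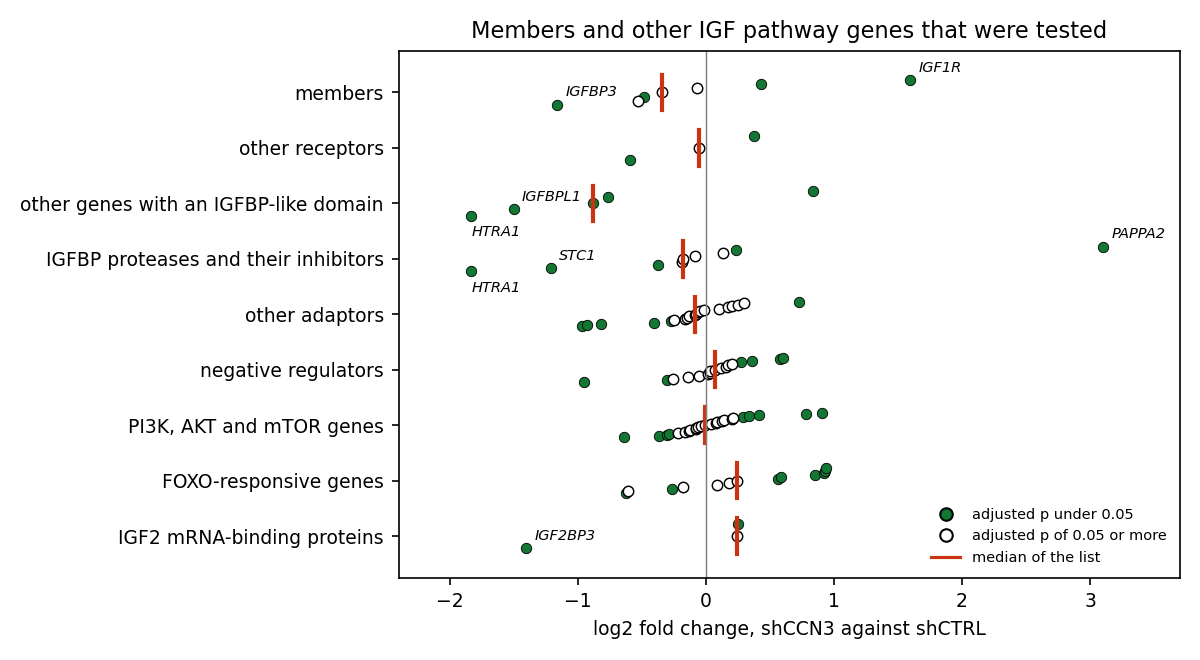
Log2 fold change of each tested member and of each tested gene of 8 other IGF pathway lists, the CCN family left out, in shCCN3 against shCTRL cells, with a circle for each gene (filled where the adjusted p was under 0.05) and a red line at the median of each list. Among the genes plotted, PAPPA2 (3.10) and IGF1R (1.60) lie farthest to the right, and HTRA1 (-1.83), which is in 2 lists, lies farthest to the left.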

How the data were processed

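RNA-seq was performed on 3 shCTRL and 3 shCCN3 samples of Hs578T cells with a stranded mRNA kit. The authors deposited raw read counts per gene, 1 column per library, without normalization. The submitters' processing notes name bcl2fastq 2.20.0, Trimmomatic, HISAT2 2.1.0, StringTie 2.1.3d, DESeq2 and the build GRCh38. The counting tool, the annotation and the strand setting are not given in the sources used here, so overlapping and antisense genes are uncertain.

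From the counts, CPM, log2 fold changes and p-values were obtained in R 4.3.3 with edgeR 4.0.16 (TMM factors, filter on low counts by group, quasi-likelihood test, Benjamini-Hochberg adjustment over all 17419 genes tested, threshold 0.05). Standard errors were derived from the F statistic. CPM was divided by the union of exons of GENCODE basic transcripts to give CPM per kilobase. Lengths were known for 85.7% of the genes tested. Positions and promoter windows came from RefSeq (GRCh38.p14), matched by Gene ID. A member was compared with its chromosome and its 24 nearest tested genes. Alternatives were DESeq2's size factors, upper-quartile normalization, no filter, at least 10 counts in every library, DESeq2 1.42.0, limma-voom (limma 3.58.1), the replicate number as a block, an offset for exon length (added after seeing the data) and each library left out. Counts of any pair of libraries within a group were more different than counting noise allows (chi-square per degree of freedom 6.75 to 42.5), so none was a copy of another. The scripts were tested on simulated data.

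The members, the gene lists and the tests were chosen with earlier results of these data known. The genes named are the 10 members, CCN3, every gene of the lists of ligands, other receptors, IGFBP-like domain and proteases, and the 3 genes of each other list with the largest change past the threshold. Some genes under this rule are not reported here. The genes surrounding the members and the marker genes were named beside them.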

Additional observations from a re-analysis of the deposited data

How the results depend on the processing

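Of the 98 fold changes of the 7 tested members under 14 alternatives, 94 kept their direction and their side of the threshold, and 4 members passed it in every alternative that used all 6 libraries. With 1 library left out, 3 to 4 members passed, and the number of lower members was 1 to 2, because IRS1 lost its call without shCTRL 1 or shCTRL 2. IGFBP6 changed sign, with a log2 fold change from -0.23 to 0.043 with 1 library left out (0.0078 without shCTRL 3). Among the other genes named, sign changes with 1 library left out were limited to 3 genes that did not pass the test, namely PAPPA (-0.18 to 0.050), ADAM28 (-0.15 to 0.51) and TMEM219 (-0.17 to 0.0029). ADAM12 passed the threshold with the offset for exon length (log2 fold change -0.24). Measured against the 24 nearest tested genes in place of the chromosome, the difference moved from 1.57 to 1.82 for IGF1R and from -0.73 to -0.85 for IGFBP3. The replicate numbers did not pair the libraries (correlations of the deviations 0.15, -0.07 and -0.26). With the replicate block, 4887 genes passed in place of 5825, and 4 members did. At this depth, INSR, IGFBP2 and IRS2 could not be compared, and the wide interval of IGFBP5 leaves changes of either sign possible.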
